A study of Mus musculus with 6 samples.

Results

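Genes that set the amount, activity and shape of mitochondria, 10 in all, were followed in cultured heart muscle cells of newborn mice, with and without the glucocorticoid receptor in cardiomyocytes. They are the transcriptional coactivators Ppargc1a and Ppargc1b, the nuclear receptors Esrra and Esrrg, their muscle partner Perm1, the mitochondrial DNA packaging factor Tfam, the fusion proteins Mfn1, Mfn2 and Opa1, and the fission protein Dnm1l. The 10 genes were chosen by name from known function, with earlier results of these data known. All 10 were found among the 52550 mouse genes of the count tables. Each had enough counts to be tested. The GR-cKO group (3 libraries) came from mice with the glucocorticoid receptor gene Nr3c1 deleted in cardiomyocytes, and the control group (3 libraries) from mice whose genotype is given only as control. Hearts of both groups were taken on postnatal day 1, cardiomyocytes were enriched by magnetic sorting and grown for 48 hours with 5% horse serum and 10% fetal bovine serum, and the cells were then kept for 24 hours without serum. All 6 samples carry a control label for treatment. The libraries are named as biological replicates, but the promoter that drives the deletion, the deleted exon, the strain, the sex, and whether a replicate is 1 animal, 1 litter or a pool are not stated in the labels. Each p-value thus rests on the spread among these 6 libraries alone. Each library was a QuantSeq library, in which 1 tag is read near the polyadenylated end of a transcript, made from 100 ng of total RNA.

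The libraries held 19371508 to 22583596 gene counts, and a gene without counts could still stand at 0.133 to 0.155 CPM (gene counts scaled to a common library total), counting error only. Nr3c1 stood at 46.1, 42.7 and 44.1 CPM in GR-cKO libraries and at 68.1, 73.8 and 72.3 CPM in control libraries (log2 fold change -0.69 ± 0.09 SE, edgeR adjusted p = 3.3e-06), and its tag checks the labels only if it lies in the deleted part. All 12 cardiomyocyte markers were measured, with summed levels of 62300 to 63870 CPM in GR-cKO and 47630 to 49050 CPM in control. Of them 9 passed the test as higher, and Tnni3, Myh7 and Nkx2-5 did not pass. Most of the summed difference came from Nppa, Myl3 and Actc1. Their means were 18210, 11390 and 9791 CPM in GR-cKO, against 13610, 8002 and 6337 CPM in control. Summed markers were also higher in GR-cKO for fibroblasts (7568 to 7748 against 5957 to 6320 CPM; 6 higher and 1 lower of 10), endothelium (1233 to 1337 against 1031 to 1066 CPM; 7 higher and 1 lower of 10), smooth muscle and pericytes (6897 to 7038 against 4951 to 5173 CPM; 6 higher of 10), epicardium (257 to 289 against 157 to 165 CPM; 4 higher and 3 lower of 10) and leukocytes (34.4 to 54.3 against 13.4 to 17.4 CPM; 2 higher of the 4 tested of 10, with Cd3e at 0 in every library). Krt18 carried most of the epicardial difference, at means of 148 CPM in GR-cKO and 47.4 CPM in control. Tbx18, Upk3b and Lrrn4 were the 3 lower epicardial markers, and the median log2 fold change of that list was -0.456. The smooth muscle and pericyte sum came mostly from Acta2 (means 3831 CPM in GR-cKO and 3291 CPM in control) and Des (2436 and 1241 CPM). Lyz2 carried most of the leukocyte sum, at means of 40.5 CPM in GR-cKO and 12.9 CPM in control. Tyrobp also passed, at 1.72 and 0.195 CPM, while Csf1r and Cd68 did not. Erythroid markers summed to 3.57 to 5.09 CPM in GR-cKO and 1.45 to 3.31 CPM in control, and neither of the 2 tested of 7 passed. For scale, 7.63% of all genes tested passed as higher in GR-cKO and 7.19% as lower. Xist, transcribed from the inactive X chromosome of females, was at 0 to 0.0995 CPM in GR-cKO and 271 to 292 CPM in control, so the genotype and the sex of the cells cannot be told apart. The part of these differences in the results on the 10 genes was not tested.

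Mitochondria are made and remodelled under the control of a short transcriptional chain and a small set of membrane enzymes. Ppargc1a and Ppargc1b encode PGC-1alpha and PGC-1beta, coactivators that bind no DNA themselves and work through transcription factors such as the estrogen-related receptors ERRalpha (Esrra) and ERRgamma (Esrrg), which raise nuclear genes of oxidative metabolism and drive Perm1 in muscle. The chain reaches the mitochondrial genome through Tfam. The mitofusins Mfn1 and Mfn2 join outer membranes, Opa1 joins inner membranes and shapes cristae, and Dnm1l (DRP1) is the dynamin that cuts mitochondria. In heart muscle the chain is known to become more active around birth, when the tissue turns to fatty acids, and glucocorticoids are known to raise Ppargc1a in fetal mouse cardiomyocytes.

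The stretches before the start sites of 3 of the genes are shown because of the results below. Mfn2 is the gene that passed the test, and Perm1 and Ppargc1a lay lower in every GR-cKO library without passing. Mfn2 lies on chromosome 4 of the mouse build GRCm38 (147873599 to 147904704, minus strand), Perm1 on the same chromosome (156215868 to 156221307, plus strand) and Ppargc1a on chromosome 5 (51454250 to 51567726, minus strand). The windows are RefSeq's for GRCm38, on the gene's own strand. Of the 10 genes 9 had such a window, and 4 short motifs were searched on both strands in the 250 bases before each RefSeq start, which can run into exons of the GENCODE annotation. The stretches printed were shortened to end before the first base of any such exon of the gene. Capitals mark matches to AAGGTCA, the half-site that estrogen-related receptors bind, or to ACGTG, a core found in hypoxia response elements and some E-boxes; a match on the opposite strand reads TGACCTT or CACGT here.
Mfn2, chr4:147904705-147904948, minus strand: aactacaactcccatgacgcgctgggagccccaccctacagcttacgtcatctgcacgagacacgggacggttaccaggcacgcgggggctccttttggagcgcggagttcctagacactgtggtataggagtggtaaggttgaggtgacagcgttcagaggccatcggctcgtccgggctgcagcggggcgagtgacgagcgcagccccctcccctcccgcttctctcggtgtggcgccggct
Perm1, chr4:156215677-156215867, plus strand: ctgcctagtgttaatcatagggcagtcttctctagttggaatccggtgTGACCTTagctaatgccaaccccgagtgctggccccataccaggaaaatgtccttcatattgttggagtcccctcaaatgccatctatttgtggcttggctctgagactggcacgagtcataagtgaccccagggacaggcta
Ppargc1a, chr5:51567727-51567975, minus strand: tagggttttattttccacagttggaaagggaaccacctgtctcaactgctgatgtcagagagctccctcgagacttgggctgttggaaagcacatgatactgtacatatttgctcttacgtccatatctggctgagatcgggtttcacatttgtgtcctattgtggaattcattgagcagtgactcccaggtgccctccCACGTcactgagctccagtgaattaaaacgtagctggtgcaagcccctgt
The Perm1 window held AAGGTCA on the opposite strand, 196 to 202 bases before the RefSeq start, a motif found in 4.08% of the 32851 promoter windows of the same length. The Ppargc1a window held ACGTG on the opposite strand, 47 to 51 bases before the start, and this core was found in 16.6% of all windows. The Mfn2 stretch printed held none of the motifs, and the ACGTG in the window of another RefSeq start of Mfn2 lay within the annotated gene. A half-site of the glucocorticoid receptor, AGAACA, is found in 16.1% of all windows. Among the 9 genes its only match was in the window of Tfam, at bases that also lie within the annotated gene. GCGCATG, part of the motif of the factor NRF1, was found before Esrra and Opa1 and in 3.24% of all windows. These matches describe letters in a window and not binding.

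Of the 10 regulators, 1 passed the test, 9 did not, and none fell. Mfn2 was the one that passed (edgeR quasi-likelihood test, Benjamini-Hochberg adjustment over all genes, threshold 0.05), and its rise was 16.5%. Across all genes tested, 14.8% passed, 7.63% as higher and 7.19% as lower in GR-cKO, so 1 of 10 is near the share of the whole table. The 3 GR-cKO libraries lay wholly above the 3 control libraries for 4 of the genes (Ppargc1b, Esrra, Mfn1 and Mfn2) and wholly below them for 2 (Ppargc1a and Perm1). Over all tested genes the groups did not overlap in 29.9%, with 15.2% above and 14.7% below. The median log2 fold change of the 10 genes was 0.08, against -0.01 over all 14386 genes tested, and the median of the absolute values was 0.17, against 0.20. With scaling by the ERCC spike-in RNAs, 1355 genes of the whole table passed as higher and 522 as lower in place of 1097 and 1035, and Ppargc1b passed beside Mfn2. In these bulk samples, fewer cells of a type and less RNA per cell cannot be told apart.

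**Figure D1:**
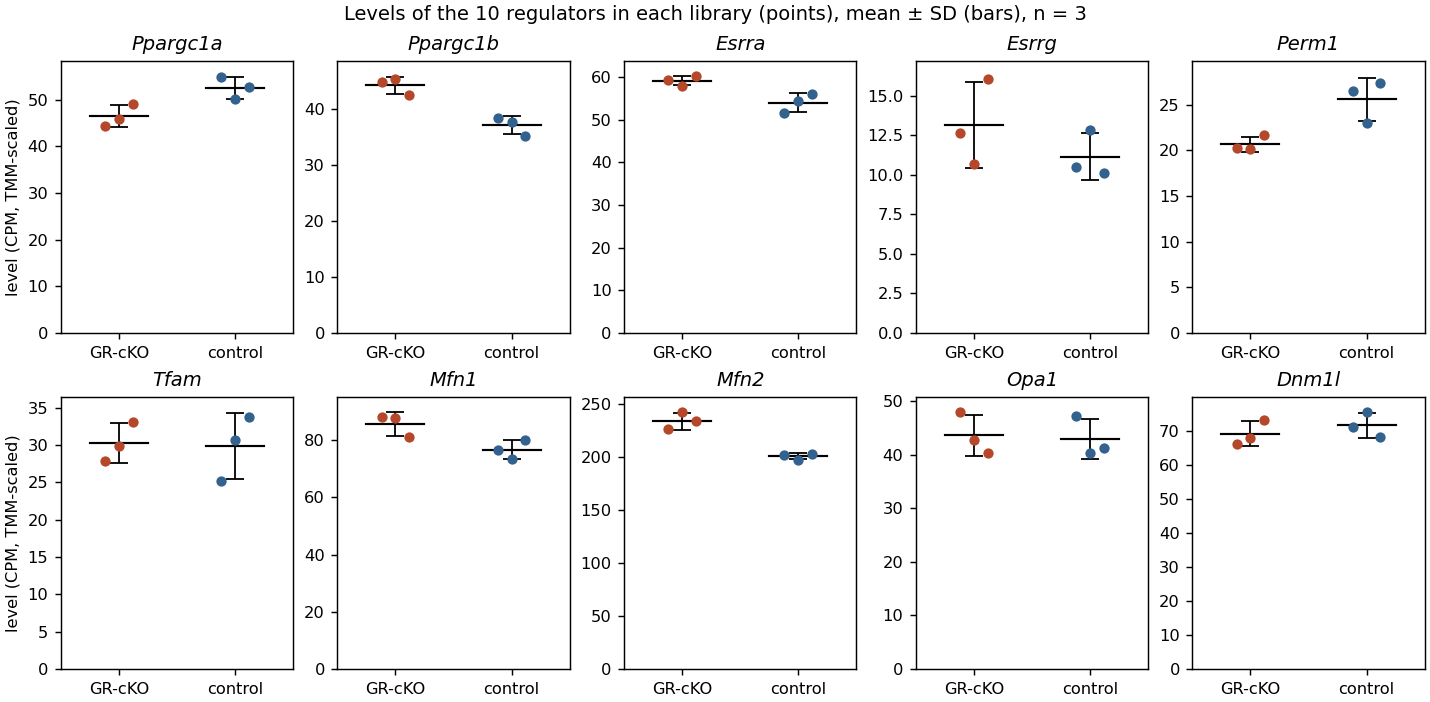
Level of each of the 10 genes in CPM (linear axis from 0) in the 3 GR-cKO and 3 control libraries, with points for libraries and bars for mean ± SD. The groups are separate for Ppargc1a, Ppargc1b, Esrra, Perm1, Mfn1 and Mfn2, and overlap for Esrrg, Tfam, Opa1 and Dnm1l.

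The coactivators stood on opposite sides. Ppargc1a (ENSMUSG00000029167) had 44.4, 45.8 and 49.1 CPM in GR-cKO libraries, against 54.8, 50.04 and 52.7 CPM in control libraries. Every GR-cKO library lay below every control library, though the gap between the nearest pair was under 1 CPM. Its log2 fold change was -0.18 ± 0.09 (SE; 95% interval of the level -22.5% to 0.80%; edgeR adjusted p = 0.228), so it did not pass. With ERCC scaling it was -0.08 (adjusted p = 0.702). Ppargc1b (ENSMUSG00000033871, chromosome 18, 61298136 to 61400431, minus strand), the paralogue with partly shared targets, had 44.7, 45.3 and 42.4 CPM in GR-cKO libraries, against 38.3, 37.6 and 35.2 CPM in control libraries. Here every GR-cKO library lay above every control library. The log2 fold change was 0.25 ± 0.10 (95% interval 3.84% to 36.7%), and it did not pass after adjustment (edgeR adjusted p = 0.0818), except with ERCC scaling, where it was 0.35 ± 0.11 (adjusted p = 0.0389).

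The ratio of the coactivators within each library, which does not depend on how libraries are scaled, was also compared. The log2 ratio of Ppargc1a to Ppargc1b was -0.01, 0.02 and 0.21 in GR-cKO libraries, against 0.52, 0.41 and 0.58 in control libraries. Every GR-cKO library lay below every control library, and GR-cKO replicate 3 lay nearest to the controls. With Ppargc1a lower and Ppargc1b higher in every GR-cKO library, the ratio had to separate the groups. The exact test then had to give its smallest p-value, so it is no evidence beyond the levels above. The difference was -0.43 with no overlap (exact two-sided permutation test over libraries, p = 0.1, the smallest that 3 against 3 allow; 0.4 after adjustment over 4 ratios). Ppargc1a made up 49.9%, 50.3% and 53.7% of the summed counts of the pair in GR-cKO libraries, against 58.9%, 57.1% and 60.0% in control libraries. The sum itself was 89.1, 91.1 and 91.5 CPM in GR-cKO libraries and 93.2, 87.6 and 87.9 CPM in control libraries, values that overlap.

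**Figure D2:**
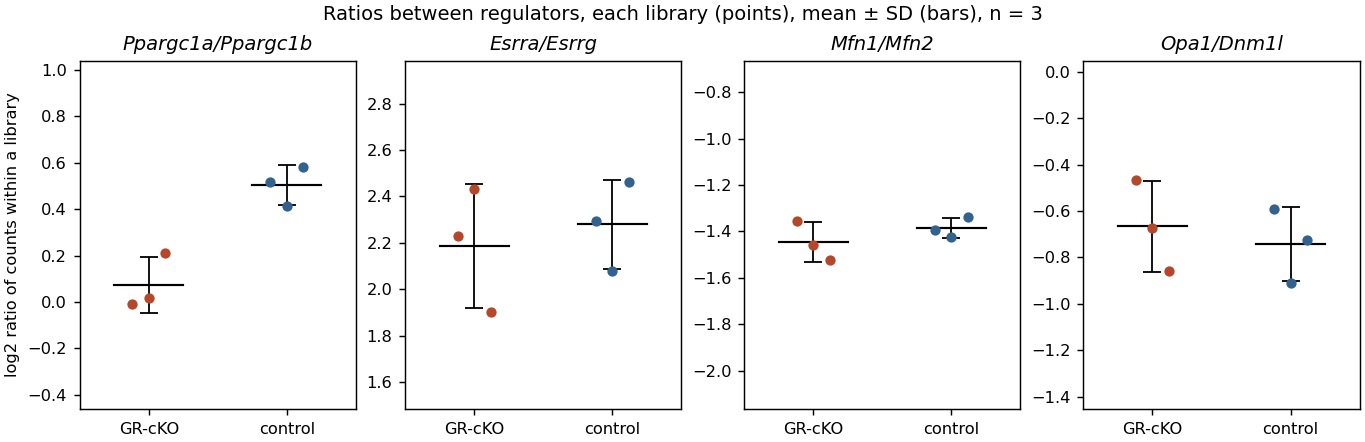
Log2 ratio of counts of 4 gene pairs within each library, GR-cKO beside control, with points for libraries and bars for mean ± SD (n = 3); the 4 panels have different centres and the same span. Only Ppargc1a/Ppargc1b separates the groups, at -0.01 to 0.21 in GR-cKO and 0.41 to 0.58 in control. That separation follows from the levels of Ppargc1a and Ppargc1b.

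The estrogen-related receptors gave smaller or noisier differences. Esrra (ENSMUSG00000024955, chromosome 19, 6910977 to 6921813, minus strand) had 59.4, 58.0 and 60.2 CPM in GR-cKO libraries, against 51.6, 54.4 and 56.0 CPM in control libraries. All GR-cKO values were above all control values, by a log2 fold change of 0.13 ± 0.09 that did not pass (95% interval -3.20% to 24.0%; edgeR adjusted p = 0.366). The last exon of Esrra shares 73 bases with Trmt112 on the opposite strand, which had 542 to 637 counts a library in GR-cKO and 473 to 596 in control, beside 1165 to 1316 and 1078 to 1162 counts of Esrra. The strand setting of the counting is not given in the sources used here, so part of the counts could belong to either gene. Esrrg (ENSMUSG00000026610, chromosome 1, 187608791 to 188214885, plus strand) was the scarcest of the 10, with 12.6, 10.7 and 16.1 CPM in GR-cKO libraries, against 10.49, 12.8 and 10.1 CPM in control libraries. These groups overlapped, and the 95% interval of the difference ran from -8.42% to 51.3% (edgeR adjusted p = 0.446). The log2 fold change was 0.24, but 0.36 without GR-cKO replicate 2 and 0.07 without GR-cKO replicate 3. The log2 ratio of Esrra to Esrrg averaged 2.19 ± 0.27 in GR-cKO and 2.28 ± 0.19 in control (SD, n = 3 each; exact permutation p = 0.6).

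Perm1 (ENSMUSG00000078486), a muscle protein induced by PGC-1 and ERR that acts on the same oxidative genes, had 20.2, 20.2 and 21.7 CPM in GR-cKO libraries, against 26.5, 23.0 and 27.4 CPM in control libraries. All GR-cKO libraries were below all control libraries. Its log2 fold change was -0.31 ± 0.12, with a 95% interval of -32.1% to -3.94%, and it did not pass after adjustment (edgeR adjusted p = 0.0947). The unadjusted p was 0.018 for Perm1 and 0.0148 for Ppargc1b. Tfam (ENSMUSG00000003923, chromosome 10, 71225464 to 71238280, minus strand), which coats mitochondrial DNA and helps start its transcription, had 27.9, 29.9 and 33.1 CPM in GR-cKO libraries, against 25.2, 30.7 and 33.8 CPM in control libraries. These ranges nearly coincide, and the 95% interval of -14.7% to 20.5% bounds the difference (edgeR adjusted p = 0.945).

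Both mitofusins were higher in every GR-cKO library. Mfn2 (ENSMUSG00000029020), which also tethers mitochondria to the sarcoplasmic reticulum, had 226, 242 and 233 CPM in GR-cKO libraries, against 202, 197 and 202 CPM in control libraries. The gap between the groups was wider than the range within either group. It rose by 0.22 ± 0.07 on the log2 scale, or 16.5%, with a 95% interval of 5.95% to 28.2% (edgeR adjusted p = 0.025), yet 46.6% of all tested genes had a larger difference in either direction. The call rests on few libraries: the adjusted p was 0.123 without GR-cKO replicate 2, 0.0501 without control replicate 1, 0.119 without control replicate 2 and 0.0555 without control replicate 3, with log2 fold changes of 0.20, 0.22, 0.21 and 0.23. With library totals alone as the scale the log2 fold change was 0.19 (adjusted p = 0.0714). Mfn1 (ENSMUSG00000027668, chromosome 3, 32529465 to 32579239, plus strand) had 88.2, 87.9 and 81.0 CPM in GR-cKO libraries, against 76.7, 73.5 and 80.0 CPM in control libraries. The nearest libraries of the groups were GR-cKO replicate 3 at 81.0 CPM and control replicate 3 at 80.0 CPM. The log2 fold change of Mfn1, 0.16 ± 0.08, did not pass (95% interval -0.41% to 25.3%, edgeR adjusted p = 0.212).

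The ratios of Mfn1 to Mfn2 and of Opa1 to Dnm1l overlapped between the genotypes. No ratio of the mitofusins to Dnm1l was compared. Mfn2 made up 71.9% to 74.2% of the summed mitofusin counts in GR-cKO and 71.7% to 72.8% in control, and the log2 ratio of Mfn1 to Mfn2 differed by -0.06 (exact permutation p = 0.4). That difference was -0.11 without GR-cKO replicate 1 (exact permutation p = 0.1, the smallest possible) and -0.02 without GR-cKO replicate 3. The summed mitofusins were 314, 330 and 314 CPM in GR-cKO libraries, against 278, 271 and 282 CPM in control libraries. With each mitofusin higher in every GR-cKO library, these sums could not overlap, and Mfn1 alone did not pass. Opa1 (ENSMUSG00000038084, chromosome 16, 29579334 to 29654884, plus strand), the inner membrane partner, had 47.9, 42.7 and 40.4 CPM in GR-cKO libraries, against 47.2, 40.3 and 41.3 CPM in control libraries. The groups overlapped over nearly their whole range (95% interval -12.0% to 17.8%; edgeR adjusted p = 0.915). Dnm1l (ENSMUSG00000022789, chromosome 16, 16312230 to 16358959, minus strand) had 66.2, 68.0 and 73.2 CPM in GR-cKO libraries, against 71.1, 75.6 and 68.3 CPM in control libraries. These groups also overlapped (95% interval -14.5% to 8.78%; edgeR adjusted p = 0.768), and the log2 ratio of Opa1 to Dnm1l was -0.66 ± 0.20 in GR-cKO and -0.74 ± 0.16 in control (SD, n = 3 each; exact permutation p = 0.7).

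**Figure D3:**
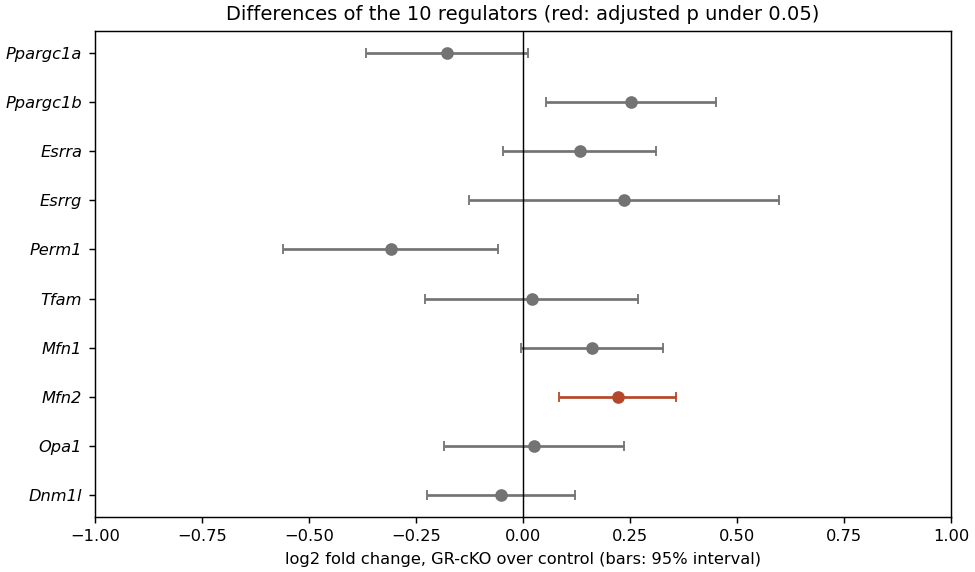
Log2 fold change of each gene, GR-cKO over control, as a point with its 95% interval; red marks an adjusted p under 0.05. Only Mfn2 is red, at 0.22, and the intervals of Ppargc1b and Perm1 also leave out 0 before adjustment.

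On the CPM scale of 3' tags, which is not divided by length because a transcript gives 1 tag whatever its size, Mfn2 was the most abundant of the 10 in both groups, at 234 CPM in GR-cKO and 200 CPM in control. Mfn1 (85.7 and 76.7 CPM), Dnm1l (69.2 and 71.7 CPM) and Esrra (59.2 and 54.0 CPM) followed as means of GR-cKO and control, with Dnm1l and Mfn1 overlapping in control libraries. In GR-cKO, Ppargc1a, Ppargc1b and Opa1 came next, at 46.4, 44.1 and 43.7 CPM, and their libraries overlapped. In control, Ppargc1a at 52.5 CPM overlapped Esrra and stood above Opa1 at 42.9 CPM, which stood above Ppargc1b at 37.0 CPM. Tfam (30.3 and 29.9 CPM), Perm1 (20.7 and 25.6 CPM) and Esrrg (13.1 and 11.1 CPM) closed the order in both groups, with Tfam and Perm1 overlapping in control libraries. Ends differ in how well they are captured, so this order is a description of tags. The libraries had 205 to 4999 counts of each gene.

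Of 109 further genes in 5 lists of known partners, 103 were tested and 10 passed, or 9.71%, beside the 14.8% of all genes, with 7 higher and 3 lower in GR-cKO. The list medians lay between -0.02 and 0.10 on the log2 scale. The transcription partners (1 higher and none lower of 24 tested of 25) included the related coactivator Pprc1, the nuclear respiratory factors and the kinases and deacetylase that act on PGC-1alpha. Only Mef2d, a muscle transcription factor known to drive Ppargc1a, passed, with 140, 134 and 134 CPM in GR-cKO libraries, against 102, 112 and 114 CPM in control libraries (log2 fold change 0.31 ± 0.07, edgeR adjusted p = 0.00504). This gene was higher in every GR-cKO library while Ppargc1a was lower in every one, but Ppargc1a did not pass (edgeR adjusted p = 0.228). Any relation between Mef2d and Ppargc1a was not tested.

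Among 22 tested of 23 genes that copy, transcribe or protect mitochondrial DNA and its RNA, 2 were higher and none lower. Lonp1, the matrix protease that among other proteins degrades free TFAM, had 156, 157 and 142 CPM in GR-cKO libraries, against 103, 94.5 and 94.1 CPM in control libraries. It rose 1.56-fold (log2 fold change 0.64 ± 0.08, edgeR adjusted p = 1.29e-06). Lrpprc, which stabilises mitochondrial messenger RNAs, had 79.4, 65.7 and 65.0 CPM in GR-cKO libraries, against 47.2, 53.3 and 62.4 CPM in control libraries, and rose by 0.37 ± 0.10 on the log2 scale (adjusted p = 0.0167). The polymerase, helicase and transcription factor genes of the list did not pass. Without GR-cKO replicate 1, or without control replicate 2, 1 gene of the list passed.

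In the list of fusion and inner membrane genes 1 was higher and none lower of 19 tested of 20. That gene was Afg3l2, an inner membrane protease subunit, at 60.9, 65.5 and 65.8 CPM in GR-cKO libraries, against 44.4, 48.3 and 37.9 CPM in control libraries. It rose 1.47-fold (log2 fold change 0.56 ± 0.10, edgeR adjusted p = 0.0002). The enzymes that cut OPA1, Oma1 and Yme1l1, did not pass, and Yme1l1 had a log2 fold change of -0.25 ± 0.10 (adjusted p = 0.087).

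In the list of fission genes 1 was higher and 1 lower of 20 tested of 21. Spire1, an actin nucleator with a form that sits on mitochondria, had 12.01, 13.0 and 9.88 CPM in GR-cKO libraries, against 8.77, 7.40 and 7.85 CPM in control libraries (log2 fold change 0.54 ± 0.18, edgeR adjusted p = 0.0449). Senp5, a protease that removes SUMO from DRP1, had 29.2, 25.7 and 23.5 CPM in GR-cKO libraries, against 36.6, 31.9 and 31.2 CPM in control libraries (log2 fold change -0.35 ± 0.12, adjusted p = 0.0454). Its last exon shares 131 bases with Ncbp2 on the opposite strand, which had 881 to 1057 counts in GR-cKO and 1166 to 1318 in control. The receptors that bring DRP1 to the outer membrane, Fis1, Mff, Mief1 and Mief2, did not pass. The count of this list was not stable: it fell to 0 without GR-cKO replicate 2, control replicate 1 or control replicate 2, and was 1 without any other single library, with ERCC scaling, with library totals or with no filter on low counts.

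Of 18 tested of 20 genes known as targets of PGC-1 and the estrogen-related receptors, 2 passed as higher and 2 as lower. Over all genes tested these shares were 7.63% and 7.19%, so the counts are near those of the whole table. Vegfa, an angiogenic factor that is also a textbook hypoxia target, had 149, 136 and 132 CPM in GR-cKO libraries, against 61.5, 67.4 and 65.5 CPM in control libraries, and rose 2.15-fold (log2 fold change 1.10 ± 0.08, edgeR adjusted p = 4.54e-10). The oxygen store myoglobin, Mb, was at 1548 ± 61.7 CPM in GR-cKO and 1194 ± 52.2 CPM in control (SD, n = 3 each), a rise of 0.37 ± 0.06 on the log2 scale. Ckmt2, the creatine kinase of heart mitochondria, had 86.8, 99.3 and 104 CPM in GR-cKO libraries, against 132, 151 and 146 CPM in control libraries (log2 fold change -0.56 ± 0.08, adjusted p = 2.55e-05). Acadm, a dehydrogenase of fatty acid oxidation, had 123, 98.9 and 114 CPM in GR-cKO libraries, against 147, 128 and 135 CPM in control libraries (log2 fold change -0.29 ± 0.08, adjusted p = 0.02). Other members such as Cycs, Idh3a and Pdk4 did not pass. Cpt1b and Ucp3 were listed at 0 in every library. Cpt1b, which heart cells are known to use, shares 2744 exon bases with the same-strand gene Gm44502 in the annotation. Gm44502 is not among the genes counted, and the part of this overlap in the 0 of Cpt1b was not tested. That 0 is not read as absence of expression.

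**Figure D4:**
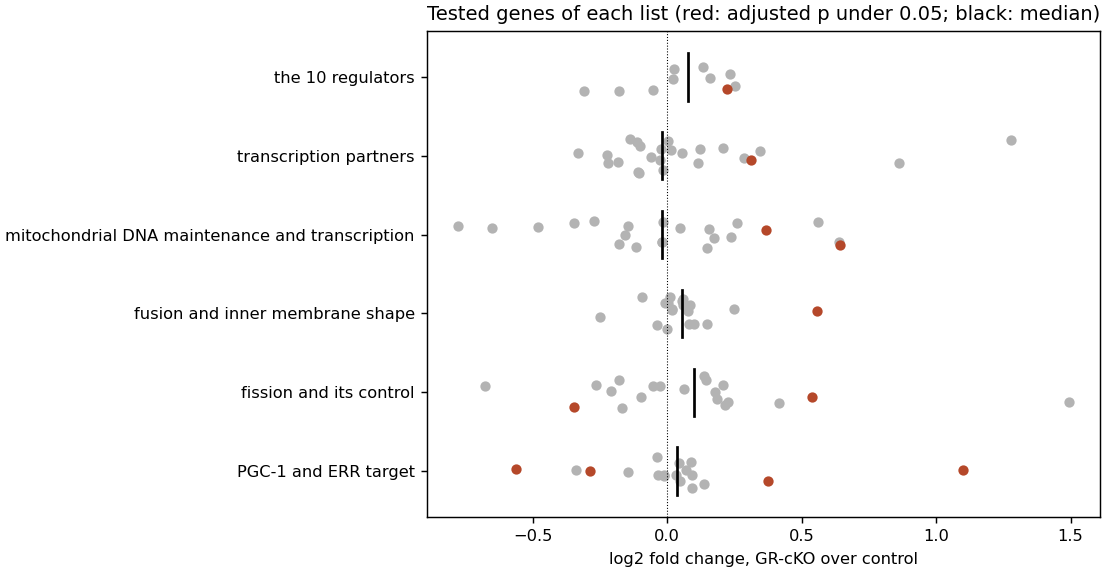
Log2 fold change, GR-cKO over control, of each tested gene in the 10 regulators and in the 5 lists, 1 point a gene, spread vertically for legibility only; red marks an adjusted p under 0.05 and the black bar the list median. Medians lie between -0.02 and 0.10, the red points of the target list lie on both sides of 0, and grey points far from 0 did not pass.

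Among 10095 genes of at least 5 CPM in 1 group, the profiles nearest to that of Mfn2 over the 6 libraries, by root mean square distance of log2 CPM from the control mean, were Ddah2 (0.0232), Psme1 (0.0237) and Lum (0.0237). Ddah2, which degrades methylarginines, was at 108 ± 2.28 CPM in GR-cKO and 91.8 ± 0.579 CPM in control (SD, n = 3 each). Psme1, a proteasome activator subunit, was at 94.2 ± 3.90 and 82.2 ± 1.58 CPM in GR-cKO and control, and Lum, a matrix proteoglycan of fibroblasts, at 77.8 ± 2.58 and 67.0 ± 0.827 CPM. Their log2 fold changes were 0.23, 0.20 and 0.22, and only Ddah2 passed (edgeR adjusted p = 0.0376).

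**Figure D5:**
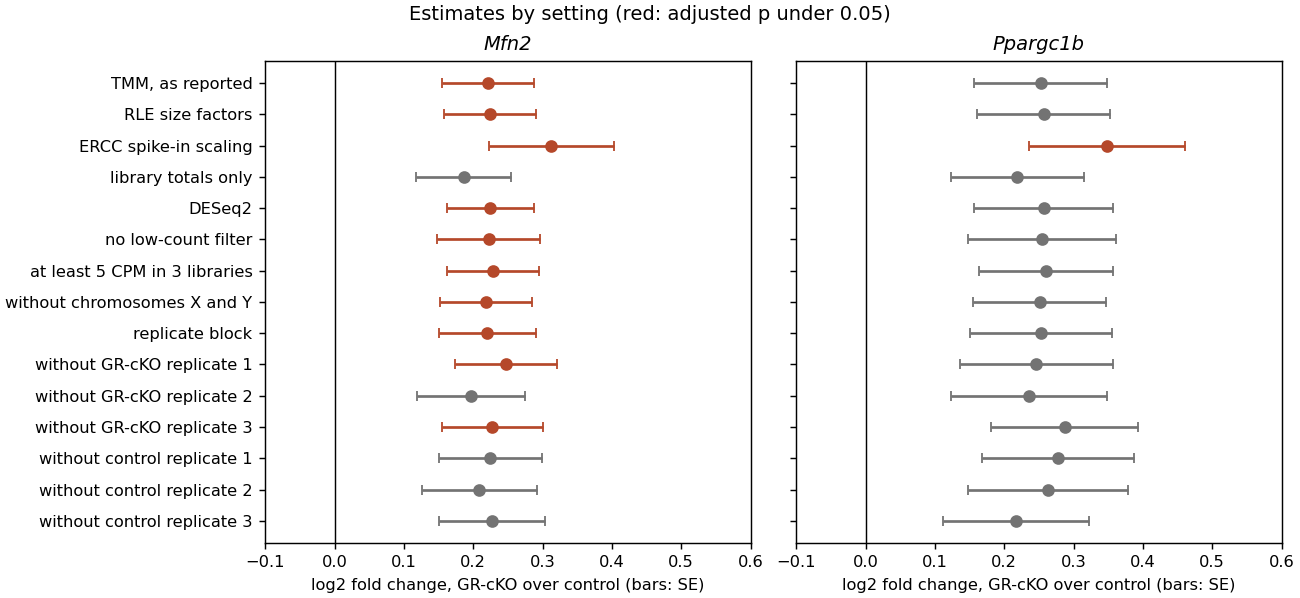
Log2 fold change of Mfn2 (left) and Ppargc1b (right), GR-cKO over control, with its SE under each way of processing; red marks an adjusted p under 0.05. Every estimate is above 0, while Mfn2 loses the call in 5 settings and Ppargc1b gains it in 1.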

How the data were processed

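Gene expression was measured in 3 GR-cKO and 3 control libraries made with QuantSeq 3' forward kits. The authors deposited raw counts per gene, 1 table a library, without normalization. The submitters' processing notes name STAR 2.5.4a, featureCounts 1.6.2, cutadapt 1.16 and DESeq2 1.18.1, among others, and build GRCm38. How strand and multi-mapped reads were treated is not given in the sources used here. Identifiers were matched to GENCODE M21 (52403 of 52550). Spike-in rows (92 ERCC, 7 SIRV; 1.98% to 2.36% of counts) stayed out of library sizes and tests.

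Counts were fitted over all genes with edgeR 4.0.16 in R 4.3.3 (quasi-likelihood test, TMM factors, default low-count filter, 14386 genes tested, Benjamini-Hochberg adjustment). CPM values are scaled by the TMM factors (0.980 to 1.024). The fit was tested on simulated data. Ratios within libraries used counts plus 1 and exact permutation tests. Alternatives included DESeq2 1.42.0, other scalings and filters, a replicate block and leaving out each library. Within groups, libraries differed by more than sampling noise (median chi-square 2.49 to 3.71 a gene, against 0.455 from sampling). This excess cannot show whether libraries come from separate animals, and all 6 were counted because they are named as biological replicates. All members are named; of other lists, all genes that passed, or the 4 with the smallest p. Members and lists were chosen with earlier results of these data known. Other genes are named as examples that did not pass, chosen after their values were seen.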

Additional observations from a re-analysis of the deposited data

How the results depend on the processing

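Over all genes, 2132 passed the test; with ERCC scaling the genes passing as lower numbered 522 instead of 1035. Members passing numbered 1 of 10, but 2 with ERCC scaling and 0 with library totals alone, and between 0 and 1 when each library was left out in turn. Ppargc1b passed with ERCC scaling (log2 fold change 0.35), and Mfn2 did not pass with library totals (0.19); without 1 library Mfn2 ranged from 0.20 to 0.25, and lost the call in 4 of these 6 fits. The sign of the smallest differences was not fixed: Dnm1l was 0.042 with ERCC scaling, Tfam -0.015 and Opa1 -0.0082 with library totals, and without 1 library Tfam ranged from -0.090 to 0.12 and Opa1 from -0.044 to 0.10. With ERCC scaling Ppargc1a was -0.08, Esrra 0.22 and Mfn1 0.25, none of which passed. The cause was not tested. Without 1 library, the difference in log2 ratio ranged from -0.50 to -0.39 for Ppargc1a to Ppargc1b, -0.21 to 0.05 for Esrra to Esrrg, -0.11 to -0.02 for Mfn1 to Mfn2 and -0.02 to 0.17 for Opa1 to Dnm1l. The fusion list had 2 genes past the threshold with library totals, in place of 1. DESeq2, size factors of the RLE kind, other low-count filters and leaving out chromosomes X and Y changed no member's call. All 10 members lie on autosomes, and leaving out X and Y does not part genotype from sex.

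Replicate numbers are shared between the groups, but the labels do not say whether they pair the libraries. Same-numbered libraries correlated at -0.000102, 0.0366 and 0.0195 in their deviations from group means. GR-cKO replicates 2 and 3 correlated best with the control of their own number, and GR-cKO replicate 1 with control replicate 3 (0.0317). With 3 libraries a group, such small correlations cannot decide whether the libraries are paired. With the replicate number as a block 2353 genes passed, and Mfn2 was the only member to pass (log2 fold change 0.22, edgeR adjusted p = 0.0222). Esrrg had the fewest counts, 205 to 312 a library, and the widest interval of the 10; the part of depth in that interval was not tested.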
